A study of Mus musculus with 18 samples.

Results

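Transcripts of 10 genes of the actin cytoskeleton were followed in NK cells (natural killer lymphocytes) from mouse spleen: the cytoplasmic actins Actb and Actg1, the actin monomer binders Tmsb4x, Tmsb10 and Pfn1, the filament severing proteins Cfl1 and Gsn, the coronin Coro1a, the Arp2/3 activator Was, and Vim. The genes were chosen by name, as actins and actin regulators, and make up 10 of the 41388 genes counted. Vim encodes vimentin, the subunit of an intermediate filament and not an actin regulator in the strict sense. RNA was sequenced in 18 libraries, 3 for each of 6 groups. The groups were wild-type (WT) cells, and cells of tamoxifen-treated mice with the alleles Ncr1-iCreERT2 KI/WT, Rosa26YFPLSL and Eomesfl/fl (called KO here), each sorted into 3 stages of maturation. Stage II is CD27+CD11b-. Cells positive for both markers are stage III, and CD27-CD11b+ cells are stage IV. In KO mice an inducible Cre is driven by the NK cell gene Ncr1, YFP reports its activity, and the deleted gene Eomes encodes a T-box transcription factor. All mice were C57BL/6, aged 8 to 12 weeks, and spleens were pooled. A tamoxifen treatment of 3 days, in 3 experiments, is listed for every library, but the labels do not say whether WT mice carried Cre or received the drug, so effects of Cre or tamoxifen cannot be told apart from those of the deletion. The labels also do not say whether replicate libraries came from different animals, so the p-values measure the spread between these libraries.

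Actin exists as monomers and as filaments, and a cell moves, spreads and forms contacts by converting one into the other. Thymosins hold monomers in reserve, profilin hands them to growing filaments, WASP switches on the Arp2/3 complex that branches filaments, cofilin and gelsolin cut them, and coronins help to organise and turn over the branched network. NK cells rely on this machinery to migrate and to build the synapse through which they kill a target cell, and loss of WASP or of coronin 1A impairs lymphocyte function.

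Total counts ran from 18684350 to 28365837 per library. KO stage III replicates 1 and 3 stood apart: 14824 and 16536 genes had a count there, against 17899 to 29859 in the other 16 libraries, and the 10 genes together took 8.25% and 11.8% of their counts, against 4.64 to 6.00% elsewhere. The most genes were detected in replicate 1 of WT stage II (29859) and replicate 3 of KO stage IV (27912). Stage III results are also given without KO stage III replicates 1 and 3 where they rest on them. As the share of the 10 genes was among the grounds, these fits are no independent check on the 10 genes. They leave KO stage III with replicate 2 alone, without a spread of its own. Limma's voom gave replicate 2 the lowest quality weight of the 18 libraries (0.156), beside 0.170 and 0.324 for replicates 1 and 3. Eomes was lower in KO than in WT at each stage, by 1.70 ± 0.15, 0.69 ± 0.15 and 1.28 ± 0.15 on the log2 scale (SE, n = 3 per group) in stages II, III and IV; the labels do not say which exons the deletion removes. The 8 NK cell markers examined were detected in every group, with a summed level of at least 13788 scaled CPM in each library. Cd27 and Itgam (CD11b) followed the sorting gates, except that Itgam was at 105 to 293 CPM in KO stage III against 396 to 454 CPM in WT stage III.

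Expression is given as TMM-scaled CPM, the usual CPM computed on library totals rescaled by the trimmed mean of M values. Per kilobase of listed gene length, the order in WT stage II was Actb, Tmsb4x, Pfn1, Cfl1, Coro1a, Tmsb10, Vim, Was, Gsn and Actg1. Mean levels per kilobase were 11121 ± 1011 scaled CPM for Actb (SD, n = 3) and 6066 ± 366 for Tmsb4x. Those of Pfn1, Cfl1 and Coro1a lay between 969 and 1414, and those of Was, Gsn and Actg1 were 13.4 ± 1.04, 6.50 ± 0.555 and 2.89 ± 0.262. Cfl1 and Coro1a overlapped in that group and were the only neighbours in the order that did. In WT stages III and IV no neighbours overlapped, Vim stood above Tmsb10, and Actg1 stood above Gsn. In KO stage II Gsn moved up to the level of Was and their libraries overlapped. Of the 10 genes, 2 were among the 10 most counted genes in 17 libraries and 3 in the remaining one, KO stage III replicate 1.

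**Figure D1:**
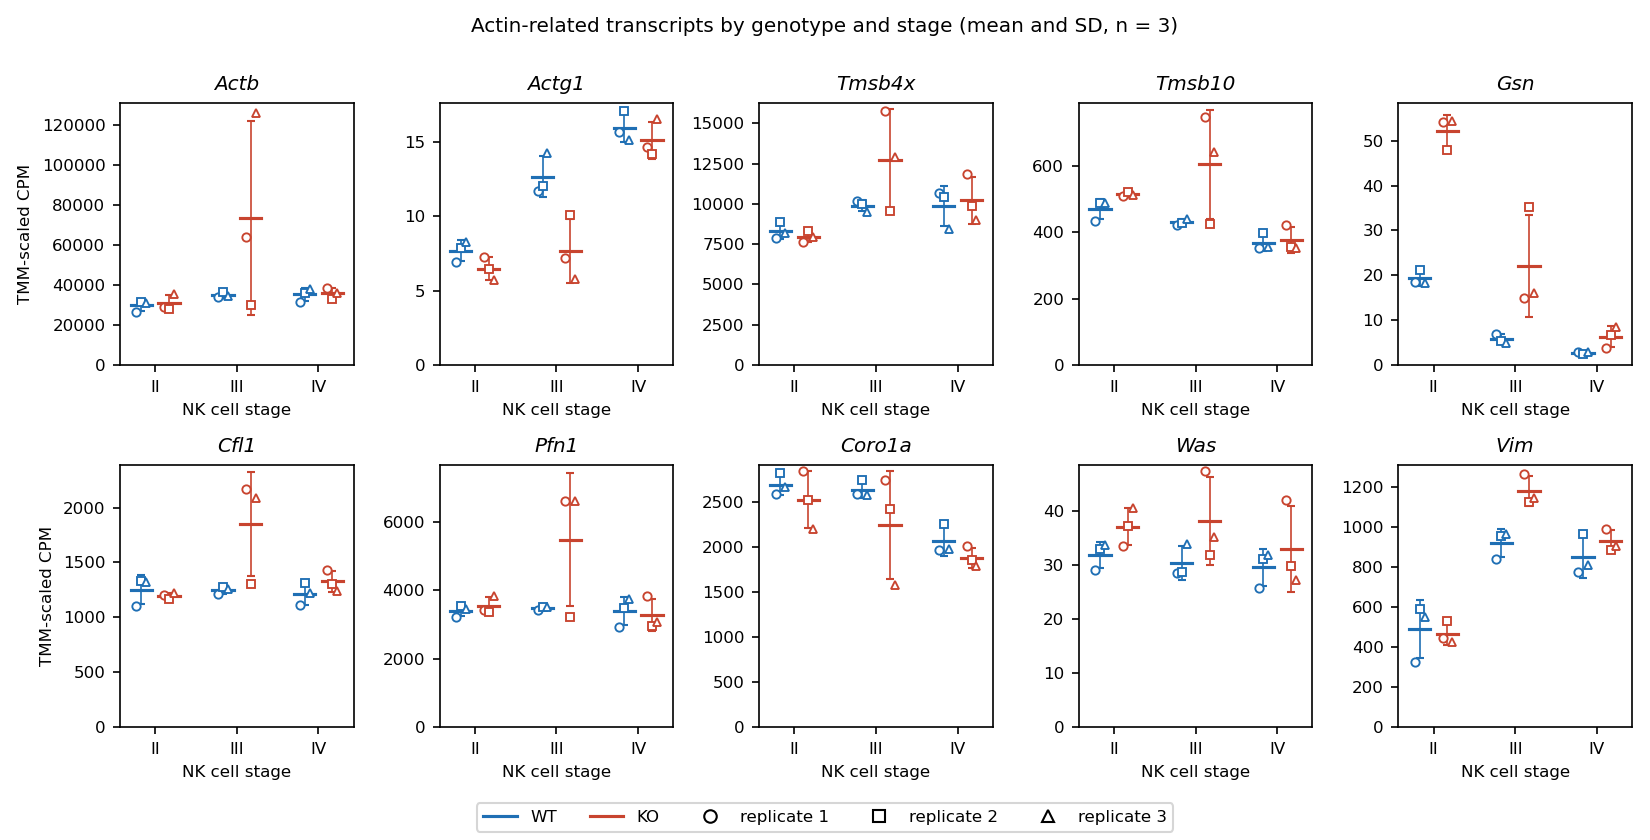
TMM-scaled CPM (linear axes starting at 0) of each gene in the 18 libraries, WT in blue and KO in red, by stage, with the mean and SD (n = 3) and one symbol per replicate number. Gsn lies higher in each KO library than in the WT libraries of its stage and falls with stage in both genotypes, while KO stage III replicates 1 and 3 rise above the rest for Actb, Cfl1 and Pfn1.

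Gsn encodes gelsolin, which severs and caps filaments in a calcium-dependent way. The gene (ENSMUSG00000026879) is listed in the files at chromosome 2, 35279663 to 35307892, plus strand (GRCm38). RefSeq (GRCm38.p6) holds a promoter window of 250 bases before the start for 9 of the 10 genes, Actb being the exception, and gives Gsn 3 of the 14 windows, of which 1 held GGTGTG. A pair of its windows is shown because Gsn is the gene that differed most clearly by genotype. Capitals mark GGTGTG, found on this strand at 142 and 39 bases before the start in the upstream window and on neither strand in the downstream one.
Gsn upstream window, chr2:35266494-35266743, plus strand: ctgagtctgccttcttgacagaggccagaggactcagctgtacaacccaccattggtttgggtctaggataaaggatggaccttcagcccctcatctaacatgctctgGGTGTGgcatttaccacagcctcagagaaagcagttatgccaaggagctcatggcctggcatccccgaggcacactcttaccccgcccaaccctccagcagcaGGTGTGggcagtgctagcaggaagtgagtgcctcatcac
Gsn downstream window, chr2:35282130-35282379, plus strand: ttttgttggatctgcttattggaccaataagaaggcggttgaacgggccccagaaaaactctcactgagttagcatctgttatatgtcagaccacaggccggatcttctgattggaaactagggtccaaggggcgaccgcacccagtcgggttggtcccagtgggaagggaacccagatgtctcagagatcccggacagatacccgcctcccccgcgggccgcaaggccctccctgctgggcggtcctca
GGTGTG is a core of the sequence that T-box factors bind, and on either strand it occurred in 16.3% of the 32851 windows of that length. GGTGTGA, which contains it, occurred in 3.33% of windows and in none of the 3 of Gsn. Of the windows of the other genes, 1 of Tmsb10 held GGTGTG. The upstream window lies outside the span counted in the files and the downstream one within it, so the counts do not tell the starts apart.

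Every KO library lay above every WT library of its stage for Gsn, and the difference was called in stages II and III. In stage II, WT replicates 1 to 3 had 18.5, 21.3 and 18.3 scaled CPM of Gsn, and KO replicates had 54.1, 48.0 and 54.5. In stage III, WT stood at 7.01, 5.39 and 4.85 and KO at 14.9, 35.2 and 16.1. In stage IV, WT stood at 2.92, 2.42 and 2.94 (58 to 71 counts) and KO at 3.75, 6.67 and 8.53 (71 to 217 counts). The gap between the nearest WT and KO libraries was wide in stages II and III and narrow in stage IV.

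The log2 difference between KO and WT was 1.43 ± 0.29 in stage II (SE, n = 3 per group, edgeR adjusted p = 0.0161, 2.70-fold) and 1.94 ± 0.31 in stage III (adjusted p = 0.00172, 3.84-fold). In stage IV it was 1.20 ± 0.32 and did not pass the threshold in edgeR (adjusted p = 0.167, unadjusted p = 0.0016), while DESeq2 (adjusted p = 0.0239) and limma's voom with library weights (adjusted p = 0.00529) called it. Averaged over the stages the difference was 1.53 ± 0.18 (edgeR adjusted p = 3.61e-05, 2.88-fold). Gsn was the only one of the 10 genes called in stage II, where 0.466% of all tested genes were called higher, and the only one in the average over stages, where 5.45% were called in either direction and 2.93% were called higher. The average called 6 of the 10 without KO stage III replicate 2, where 19.6% of all tested genes were called.

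Without KO stage III replicates 1 and 3, which leaves 1 KO library there, the stage III difference was 2.60. The difference passed in each of 18 fits that left out 1 library. It did not pass in a fit restricted to the 6 libraries of that stage (1.94, edgeR adjusted p = 0.179). In stage II the call was lost without any 1 of WT stage II replicates 1, 2 or 3 or KO stage II replicates 1 or 3, with edgeR adjusted p of 0.059 to 0.0947, and with library totals as the only scaling (1.43, adjusted p = 0.0543), while stage IV gained the call without KO stage III replicate 2 (1.19, adjusted p = 0.0298). The genotype effect on Gsn was not shown to differ between stages (interaction III against II 0.51 ± 0.41, edgeR adjusted p = 0.594; IV against III -0.74 ± 0.44, adjusted p = 0.518).

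Gsn also fell with stage in both genotypes. In WT the log2 change from stage II to III was -1.75 ± 0.30 (edgeR adjusted p = 0.00268, 3.37-fold lower), and from II to IV -2.81 ± 0.32 (adjusted p = 1.17e-05, 7.01-fold lower). The step from stage III to IV was -1.06 ± 0.32 and missed the threshold (edgeR adjusted p = 0.0987), while a fit of the 9 WT libraries paired by replicate number gave -1.06 with an adjusted p of 0.000687. In KO the change from II to IV was -3.04 ± 0.31 (edgeR adjusted p = 2.29e-06, 8.21-fold lower). KO stage III lay between KO stages II and IV in all 3 libraries.

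Of the marker lists of other lymphocytes, that of ILC1, a tissue-resident relative of NK cells, moved with Gsn. The summed level of its 7 markers ran from 591 to 1050 scaled CPM in WT stage II and from 1402 to 1664 in KO stage II. In stage III it was 45.6 to 55.6 for WT libraries against 183 to 289 for KO libraries, and in stage IV 21.3 to 26.4 against 46.8 to 65.0. None of the 7 was at 0 throughout a group. In bulk RNA, more cells of a type and more RNA per cell cannot be told apart, and the part of ILC1-like cells in the Gsn result was not tested. A list of 9 B cell markers was also higher in KO in stage II (1876 to 1993 against 1408 to 1609) and stage III (1021 to 1503 against 717 to 787), and lower in stage IV (170 to 215 against 230 to 358). Its defining members Ms4a1 and Pax5 reached at most 2.01 and 0.18 scaled CPM in any library. A list of 8 T cell markers was lower in KO in stage II (265 to 294 against 335 to 485), with Cd3d at 36.3 to 49.5 against 118 to 137. Its other members, Cd3g and Lef1 among them, overlapped between the genotypes there. The summed list was higher in KO in stage III (242 to 275 against 196 to 230) and overlapped in stage IV. Lef1 made up most of the stage III sum and overlapped between the genotypes. Cd3g and Trac were higher in every KO library of that stage than in every WT library. The part of T cells in these sums was not tested.

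The 5 genes whose log2 levels were most like Gsn over the 18 libraries were Ano10, Tmem154, Prkd2, Ikzf2 and Tnfsf8, with Pearson r from 0.938 to 0.953, among the 6858 genes with a mean log2 CPM of at least 4. Without KO stage III replicates 1 and 3 the r of these 5 genes ran from 0.941 to 0.964. These are descriptions over libraries that share groups and carry no p. Among the 10 genes, Actg1 ran most opposite to Gsn, with r of -0.86 over 18 libraries and -0.91 over 16.

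Cfl1 encodes cofilin 1, the main cofilin of white blood cells, which severs ageing filaments. It lies at chromosome 19, 5490485 to 5494029, plus strand (ENSMUSG00000056201). In 5 of the 6 groups single libraries ran from 1103 to 1432 scaled CPM. In KO stage III, replicates 1 to 3 had 2167, 1303 and 2084 scaled CPM, against 1210, 1280 and 1258 for WT stage III. Replicates 1 and 3 were thus far above every other library and replicate 2 was just above the WT range. The fitted log2 difference was 0.57 ± 0.16 (edgeR adjusted p = 0.0395), and 0.05 without replicates 1 and 3, from 1 KO library. The call held in 2 of 18 fits that left out 1 library, namely without KO stage III replicate 2 or WT stage II replicate 1. In stages II and IV the differences were -0.06 ± 0.16 and 0.13 ± 0.16. Near-identical features cover 72.8% of the Cfl1 coding sequence. They held at most 654 counts in a library against at least 24212 for Cfl1, and the part of shared reads was not tested.

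Actb encodes beta-actin, a ubiquitous cytoplasmic actin, at chromosome 5, 142903115 to 142906754, minus strand (ENSMUSG00000029580). In stage II, WT replicates 1 to 3 stood at 26688, 31675 and 31017 scaled CPM, and KO replicates at 28806, 27900 and 35648. In stage IV, WT replicates stood at 31619, 36180 and 38274, and KO replicates at 38714, 33219 and 36065. The genotypes overlapped at both stages, and the log2 differences were 0.05 ± 0.31 and 0.03 ± 0.31. In stage III, WT libraries were close together at 34023, 36391 and 34564, while KO libraries were at 64040, 30196 and 126151. The 3 KO libraries fell on both sides of the WT range, with replicate 2 below it. The fitted difference of 1.07 ± 0.31 passed edgeR's test (adjusted p = 0.0473). It was called in 1 of 18 fits that left out 1 library, the one without KO stage III replicate 2. The difference turned to -0.22 without KO stage III replicates 1 and 3, from 1 KO library.

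Between WT stages, Actb differed by 0.23 ± 0.31 from II to III (edgeR adjusted p = 0.945) and by 0.25 ± 0.31 from II to IV (adjusted p = 0.673). In the 9 WT libraries paired by replicate number the corresponding values were 0.24 (adjusted p = 0.00178) and 0.24 (adjusted p = 0.000532). The pooled spread of the 18 libraries includes KO stage III, where Actb varied 4.18-fold between libraries, against 1.28-fold or less within each other group. The genes most like Actb over 18 libraries were Snx3, Fli1, Fcf1, Rac2 and Jpt1 (r from 0.968 to 0.977). Without KO stage III replicates 1 and 3 their r fell to between 0.635 and 0.885.

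Actg1 encodes gamma-actin, which differs from beta-actin in a few residues at its amino terminus. It lies at chromosome 11, 120345690 to 120348542, minus strand (ENSMUSG00000062825). Its promoter window is shown because it alone among the 14 windows of these genes held a CArG box (capitals, 90 bases before the start), the element bound by serum response factor, which occurred in 1.47% of all windows on either strand.
Actg1 window, chr11:120348496-120348745, minus strand: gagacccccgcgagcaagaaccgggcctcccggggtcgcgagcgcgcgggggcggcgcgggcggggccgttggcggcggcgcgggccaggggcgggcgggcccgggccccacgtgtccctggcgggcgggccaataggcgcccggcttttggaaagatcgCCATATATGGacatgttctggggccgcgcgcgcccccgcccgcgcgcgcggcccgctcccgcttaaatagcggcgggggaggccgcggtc
The counts of Actg1 are uncertain. It had 113 to 421 counts per library, against 585676 to 2459467 for Actb. Annotated features at least 95% identical to it, 6 in number and led by the pseudogene Gm12715 (99.6%), cover 100% of its 1128-base coding sequence. Those listed in the files held 12 to 46 counts in all. The sources used here do not give the treatment of reads that match several places. The level of Actg1 and its differences therefore apply to the counted reads alone, and the part of shared reads in the low counts was not tested. Actb has no such feature in the annotation.

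Within that limit, Actg1 rose with stage. Scaled CPM was 6.93, 7.85 and 8.29 in WT stage II, 11.7, 12.0 and 14.3 in stage III, and 15.7, 17.1 and 15.2 in stage IV, so that no stages overlapped. KO replicates had 7.24, 6.44 and 5.71 at stage II, 7.17, 10.1 and 5.80 at stage III, and 14.6, 14.2 and 16.5 at stage IV, and only the first pair of stages overlapped. The log2 change from stage II to IV was 1.05 ± 0.19 in WT (edgeR adjusted p = 0.00086) and 1.22 ± 0.19 in KO (adjusted p = 0.000165), and both held in each of 18 fits that left out 1 library. The WT step from II to III was 0.72 ± 0.19 (adjusted p = 0.0469) and held in 3 of 18 such fits, while the paired WT fit gave 0.72 with an adjusted p of 0.000834. From III to IV it was 0.33 ± 0.18 (edgeR adjusted p = 0.55), and 0.33 with an adjusted p of 0.0444 in the paired WT fit.

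In stage III, Actg1 was lower in KO than in WT by -0.72 ± 0.19 (edgeR adjusted p = 0.0328), with every KO library below every WT library. Without KO stage III replicates 1 and 3 the difference was -0.34, from 1 KO library. The call held in 5 of 18 fits that left out 1 library. In stages II and IV the differences were -0.25 ± 0.19 and -0.08 ± 0.18, and neither was called. The log2 ratio of Actb to Actg1 within a library was higher in KO stage III by 1.59, with an SD of 1.43 in KO and 0.171 in WT (n = 3 each, exact two-sided permutation p = 0.2, Benjamini-Hochberg adjusted 0.45 over 9 such tests). It was 13.12, 11.55 and 14.41 in KO replicates 1 to 3, beside a WT mean of 11.44. The difference ran from 0.90 to 2.33 on leaving out 1 library, highest without KO replicate 2, and was 0.11 without KO replicates 1 and 3. With 3 libraries against 3 the smallest p this test can give is 0.1.

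Tmsb4x and Tmsb10 encode the thymosins that sequester actin monomers. Tmsb4x lies at chromosome X, 167207093 to 167209315, minus strand (ENSMUSG00000049775), and Tmsb10 at chromosome 6, 72957347 to 72958748, minus strand (ENSMUSG00000079523). Per kilobase, Tmsb4x stood at 6066 scaled CPM in WT stage II and Tmsb10 at 368. Near-identical features cover part of the Tmsb10 coding sequence, while Tmsb4x has none in the annotation. Those listed in the files held far fewer counts than Tmsb10 in every library. The part of shared reads in the level of Tmsb10, and in its ratio to Tmsb4x, was not tested. In stage II, WT replicates had 7895, 8871 and 8183 scaled CPM of Tmsb4x against 7628, 8295 and 7952 for KO. In stage III, WT had 10195, 9995 and 9498 against 15790, 9575 and 12880 for KO. In stage IV, WT had 10692, 10429 and 8458 against 11833, 9888 and 8967 for KO. Only KO stage III replicates 1 and 3 left the range of the WT libraries of their stage on the high side by a wide margin.

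For Tmsb10 in stage II, WT replicates had 434, 486 and 487 scaled CPM against 508, 521 and 511 for KO. The groups did not overlap, but the log2 difference was 0.13 ± 0.16 and was not called (edgeR adjusted p = 0.962). Groups did not overlap, with KO higher, for Tmsb10 and Gsn in stage II, where the same was true of 11% of all tested genes. In stage III, WT had 421, 428 and 438 of Tmsb10 against 746, 425 and 641 for KO, and in stage IV 352, 397 and 355 against 423, 356 and 353. The stage III differences were 0.49 ± 0.16 for Tmsb10 (edgeR adjusted p = 0.0594) and 0.37 ± 0.16 for Tmsb4x (adjusted p = 0.14). Without KO stage III replicates 1 and 3 they were -0.02 and -0.06. The within-library log2 ratio of Tmsb4x to Tmsb10 was lower in KO by 0.19 in stage II (KO minus WT -0.19, exact two-sided permutation p = 0.1, adjusted 0.45, n = 3 per group), and the differences in stages III and IV were -0.12 and 0.02.

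The thymosins moved apart with stage. From stage II to IV, Tmsb10 differed by -0.35 ± 0.16 in WT (edgeR adjusted p = 0.154) and by -0.44 ± 0.16 in KO (adjusted p = 0.0693), and its stages did not overlap in either genotype. Tmsb4x differed by 0.25 ± 0.16 in WT (adjusted p = 0.35) and 0.36 ± 0.16 in KO (adjusted p = 0.156). None of these passed in the fit of all 18 libraries. The fit without KO stage III replicates 1 and 3, given last, is no independent check on the thymosins. The share of the genes followed here was among the grounds for leaving these libraries out. In the paired WT fit both were called, at -0.36 (adjusted p = 0.000352) and 0.23 (adjusted p = 0.00342), and without KO stage III replicates 1 and 3 the edgeR fit called Tmsb10 in both genotypes (adjusted p = 0.0125 and 0.00207).

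Pfn1 encodes profilin 1, which loads actin monomers with ATP and delivers them to filament ends. It lies at chromosome 11, 70651850 to 70654644, minus strand (ENSMUSG00000018293). Outside KO stage III its 15 libraries ran from 2930 to 3840 scaled CPM, and no stage or genotype contrast among them was called. In stage III, WT libraries were at 3412, 3520 and 3504 and KO libraries at 6599, 3223 and 6606. KO replicates 1 and 3 were almost equal, and replicate 2 was below the WT range. The log2 difference was 0.65 ± 0.20 (edgeR adjusted p = 0.0556), -0.12 without replicates 1 and 3, and 0.92 without replicate 2 (adjusted p = 9.79e-05).

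Was encodes WASP, and Coro1a encodes coronin 1A, which binds filaments and the Arp2/3 complex. Was lies at chromosome X, 8081453 to 8090498, and Coro1a at chromosome 7, 126699773 to 126707787, both on the minus strand (ENSMUSG00000031165 and ENSMUSG00000030707). Was ran from 25.7 to 34.0 scaled CPM in the 9 WT libraries and from 27.2 to 47.5 in the 9 KO libraries. Its log2 differences between KO and WT were 0.22 ± 0.17, 0.33 ± 0.18 and 0.16 ± 0.18 in stages II, III and IV, and the genotypes overlapped at each stage, in stage II by the narrow margin of 33.6 in the lowest KO library and 33.7 in the highest WT library. Averaged over stages the difference was 0.24 ± 0.10 (edgeR adjusted p = 0.199).

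Coro1a in WT stood at 2595, 2824 and 2674 scaled CPM at stage II, 2591, 2750 and 2580 at stage III, and 1969, 2261 and 1981 at stage IV. KO replicates stood at 2852, 2531 and 2210 at stage II, 2745, 2428 and 1577 at stage III, and 2010, 1855 and 1788 at stage IV. Stage IV lay below stage II without overlap in both genotypes. The log2 difference was -0.38 ± 0.16 in WT (edgeR adjusted p = 0.132) and -0.43 ± 0.16 in KO (adjusted p = 0.0943), so neither passed in the fit of all libraries. The paired WT fit called it (-0.39, adjusted p = 1.87e-05), as did the edgeR fit without KO stage III replicates 1 and 3 in both genotypes (adjusted p = 0.00913 in WT and 0.00376 in KO). The fit without KO stage III replicates 1 and 3 is no independent check. The share of the genes followed here was among the grounds for leaving these libraries out. Their omission also takes the range of Coro1a in KO stage III, 1577 to 2745 scaled CPM, out of the pooled spread. KO and WT differed by -0.09 ± 0.16, -0.23 ± 0.16 and -0.14 ± 0.16 in stages II, III and IV, none of them called.

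Vim lies at chromosome 2, 13573927 to 13582826, plus strand (ENSMUSG00000026728). Its promoter window held the TATA motif TATAAA, found on either strand in 12.4% of all windows. Vim rose between stages II and III. WT replicates had 323, 591 and 551 scaled CPM at stage II, 840, 952 and 963 at stage III, and 773, 965 and 807 at stage IV. For KO the levels were 442, 528 and 423 at stage II, 1261, 1123 and 1143 at stage III, and 990, 882 and 906 at stage IV. Stage II lay below stages III and IV without overlap in both genotypes. The WT change was 0.91 ± 0.18 from II to III (edgeR adjusted p = 0.00723, 1.88-fold) and 0.80 ± 0.18 from II to IV (adjusted p = 0.00529). From III to IV it was -0.11 ± 0.18 (adjusted p = 0.948). In KO, Vim was 1.99-fold higher at stage IV than at stage II (edgeR adjusted p = 0.000747). The step from II to III lost its call without WT stage III replicate 2 or 3 (0.90 in each, adjusted p = 0.0553 and 0.0562), while both changes from II to IV held in each fit that left out 1 library.

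In stage III every KO library was above every WT library for Vim, KO replicate 2 included, yet the difference was 0.36 ± 0.18 and did not pass (edgeR adjusted p = 0.191). It was 0.28 without KO stage III replicates 1 and 3, from 1 KO library. In stages II and IV Vim differed between genotypes by -0.07 ± 0.18 and 0.13 ± 0.18.

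**Figure D2:**
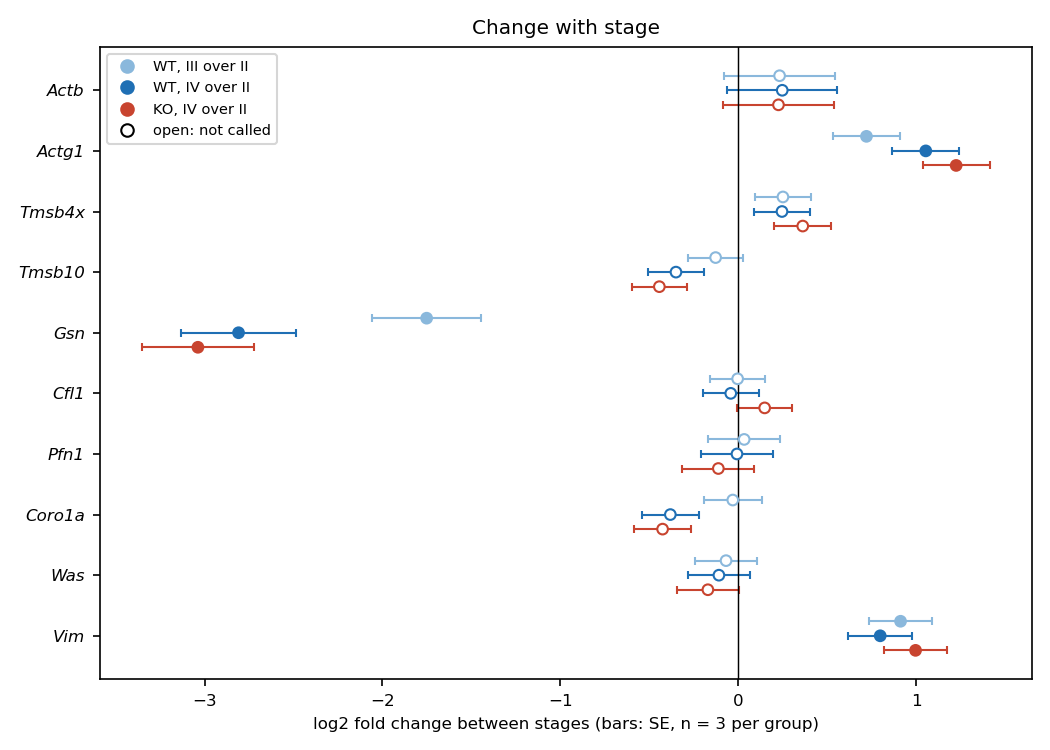
Log2 fold change with stage for each gene (points, with SE bars from edgeR, n = 3 per group) in WT from II to III, WT from II to IV and KO from II to IV, where filled points passed an adjusted p of 0.05. Gsn changes by -2.81 in WT and -3.04 in KO from II to IV, and Vim and Actg1 rise in both.

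Counted together, Actg1 and Vim were called higher and Gsn lower from stage II to III in WT, that is 3 of the 10 genes, against 2.97% of all tested genes (0.989% higher and 1.98% lower). From II to IV in WT, a comparison that shares the stage II libraries, Actg1 and Vim were again called higher and Gsn lower, against 15.1% of all genes (5.26% higher and 9.82% lower). In KO the calls from II to IV were also Actg1 and Vim higher and Gsn lower, against 14.9% (6.12% and 8.76%). Stages II and IV did not overlap for 2 genes that were higher at IV and 3 that were lower in WT, as for 20.4% and 22.3% of all genes, and for 4 and 3 in KO, as for 17% and 20%. Between stages II and III in WT 4 were higher and 1 lower without overlap (12% and 13.4% of all genes), and between III and IV 1 and 3 (14.8% and 16.2%). From III to IV in WT edgeR called 0 of the 10 (2 at an unadjusted p under 0.05), against 3.17% of all genes, DESeq2 called 1 and voom 3. The paired WT fit called 5, 4 and 7 of the 10 from II to III, III to IV and II to IV, where 19.4%, 24.3% and 46.5% of all tested genes were called. The median log2 change of the 10 genes from II to IV was -0.02 in WT and 0.02 in KO, beside -0.02 and 0.03 over all tested genes.

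**Figure D3:**
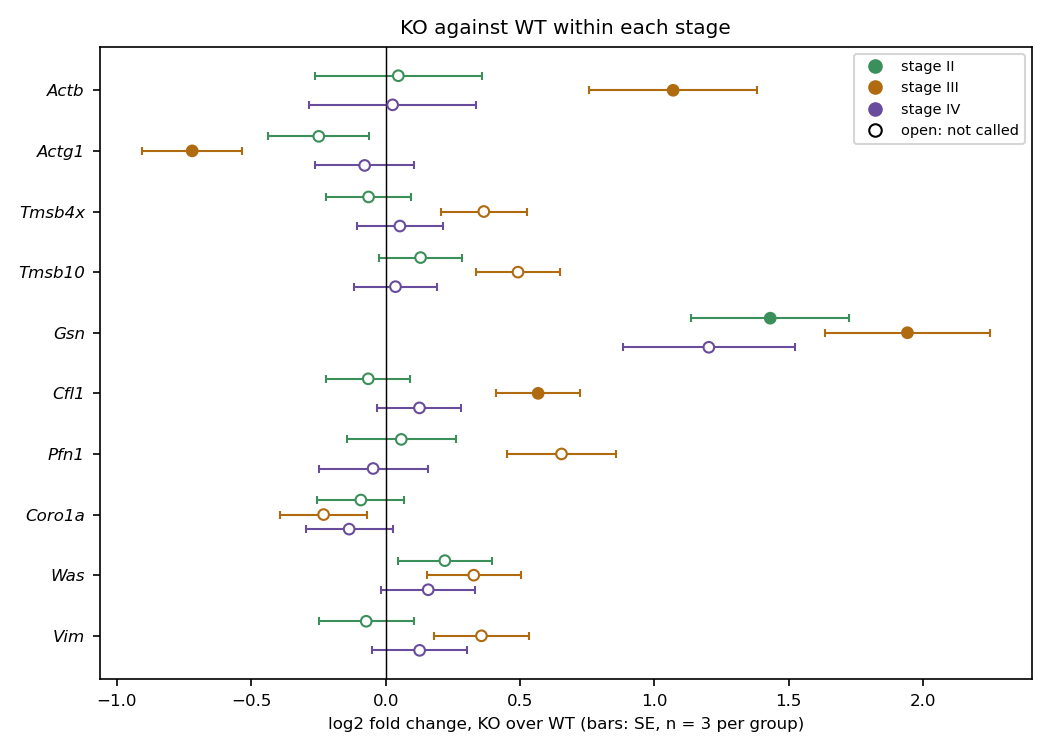
Log2 fold change of KO over WT for each gene within stages II, III and IV (points, with SE bars from edgeR, n = 3 per group), where filled points passed an adjusted p of 0.05. Gsn lies right of 0 at every stage (1.43, 1.94 and 1.20), and Actb, Cfl1 and Actg1 were called in stage III alone.

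Between genotypes, edgeR called 1 of the 10 genes in stage II, where 1.46% of all tested genes were called, and 4 in stage III (Gsn, Actb and Cfl1 higher, Actg1 lower), where 7.9% were (5.16% higher and 2.75% lower). Of all genes 730 were higher and 389 lower in stage III. With library totals as the only scaling the median of all genes in this comparison shifted by -0.16, 213 genes were higher and 306 lower, and 2 of the 10 were called, Gsn at 1.83 and Actg1 at -0.85. In stage IV it called 0 of 10 (1 at an unadjusted p under 0.05, Gsn; DESeq2 and voom each called 1), where 0.509% of all genes were called. Groups did not overlap in stage III for Gsn, Cfl1 and Vim (higher, as for 9.29% of all genes) and Actg1 (lower, as for 11.2%), and in stage IV for Gsn alone (higher, as for 6.99%). No difference of the genotype effect between stages was called for any of the 10 in edgeR, where 0.0494%, 0.212% and 0.0283% of all genes were called for III against II, IV against II and IV against III. At an unadjusted p under 0.05 there were 2, 0 and 3 of the 10 in these comparisons, and DESeq2 and voom called 0 in each. Without KO stage III replicate 2, however, edgeR called 6 of the 10 for III against II and 5 for IV against III, where 15% of all tested genes were called in each.

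The stage III picture differed between the KO libraries. Relative to the WT stage III mean, KO replicate 1 had 1.83-fold Actb, 1.90-fold Pfn1, 1.74-fold Tmsb10, 1.73-fold Cfl1 and 1.60-fold Tmsb4x. KO replicate 3 had 3.61-fold, 1.90-fold, 1.49-fold, 1.67-fold and 1.30-fold of the same genes, and KO replicate 2 had 0.863-fold, 0.927-fold, 0.990-fold, 1.04-fold and 0.968-fold. Replicates 1 and 3 each had 8 of the 10 genes above the WT range, and replicate 2 had 3. Over all tested genes, 38.7%, 31.0% and 38.7% lay above the WT range in replicates 1 to 3.

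Gsn went the other way among these libraries: it was 2.58-fold and 2.79-fold of the WT mean in replicates 1 and 3 and 6.12-fold in replicate 2. Vim lay above the WT range in all 3, at 1.37-fold, 1.22-fold and 1.24-fold. Summed immediate early genes, which respond to handling, were at 4798 and 5997 scaled CPM in KO stage III replicates 1 and 3 and at 12922 in replicate 2, against 4265 to 11841 in WT stage III. They were lowest in replicate 1 of every group (3598 to 4798), and their part in these values was not tested. The sum of 10 myeloid markers was 374, 644 and 487 scaled CPM in KO stage III replicates 1 to 3, against 401 to 442 in WT stage III. Itgax made up most of that sum in KO stage III (346, 535 and 417). Lyz2 stood at 1.54, 62.0 and 9.18 (at most 2.70 in WT stage III) and Csf1r at 0, 9.80 and 1.59 (at most 1.47), both highest in replicate 2. Cd68 (26.9, 31.7 and 53.3) and Adgre1 (0.06, 3.72 and 4.87) were instead highest in replicate 3. The sum of 9 erythroid and platelet markers was 12.9, 21.6 and 10.9, against 4.51 to 6.90 in WT. The part of such cells in the values of the 10 genes was not tested. Without replicates 1 and 3, 1 of the 10 genes was called in stage III (Gsn), where 0.871% of the tested genes were. Without replicate 2, 7 were called, where 30.6% of the tested genes were. Cfl1 and Pfn1 followed each other with r of 0.93 over 18 libraries and 0.39 without the 2 libraries.

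**Figure D4:**
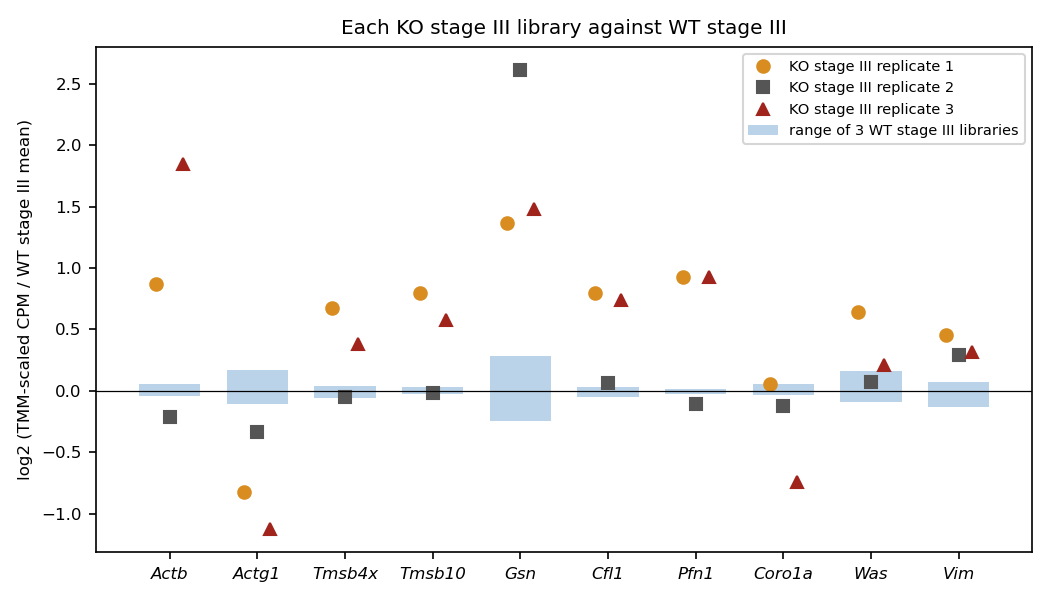
Log2 ratio of each KO stage III library to the mean of the 3 WT stage III libraries for each gene, with the range of the WT libraries shaded. Replicates 1 and 3 lie above the WT range for Actb, Tmsb4x, Tmsb10, Cfl1 and Pfn1, where replicate 2 lies in, just above or below it, and all 3 lie above it for Gsn and Vim.

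The wider actin machinery was read from 8 lists of 134 further genes, of which 122 were tested. Between genotypes in stage II, 1 of the 122 was called, where 1.46% of all tested genes were. It was Inf2, a formin that both nucleates and severs filaments (0.70 ± 0.16 higher in KO, edgeR adjusted p = 0.0423). In the fit without KO stage III replicates 1 and 3, the cofilin phosphatase Ssh1 was lower in KO in stage II (-0.49 ± 0.08). In stage IV edgeR called 0 of the 122, where 0.509% of all genes were called. Without KO stage III replicates 1 and 3 it called 1 higher and 1 lower in stage IV, where 0.903% of all genes were called. In stage III, 3 were higher and 8 lower in KO, where 7.9% of all tested genes were called (5.16% higher and 2.75% lower). Without KO stage III replicates 1 and 3, 1 KO library is left in stage III, so calls are not counted. The median of 128 tested genes of the lists was then -0.03, beside 0.01 over all genes. Averaged over stages, 2 were called higher and 2 lower, where 5.45% of all tested genes were called. The gelsolin relative Capg (0.40 ± 0.10, edgeR adjusted p = 0.0309) and the cofilin relative Dstn (0.32 ± 0.09, adjusted p = 0.0443) were higher. Vcl, the adhesion protein vinculin (-0.81 ± 0.20), and the lamin Lmnb2 (-0.62 ± 0.16) were lower. The average without KO stage III replicates 1 and 3 called 2 higher and 0 lower of 128 tested, where 4.18% of all genes were called. Dstn kept its call there, Capg, Vcl and Lmnb2 did not, and 1 further gene gained one. The median of the 122 in that average was -0.04, beside 0.01 over all tested genes.

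From stage II to IV in WT, 14 of the 122 rose and 3 fell, beside 5.26% higher and 9.82% lower of all tested genes. Among formins and Ena/VASP proteins, Inf2 (1.26 ± 0.16) and Diaph1 (0.57 ± 0.14) rose and Evl (-0.73 ± 0.17) fell. Among crosslinkers and membrane linkers, filamin A (Flna, 0.81 ± 0.15) and zyxin (Zyx, 0.67 ± 0.12) rose and alpha-actinin 1 (Actn1, -3.37 ± 0.53) fell. In KO 11 rose and 8 fell, beside 6.12% higher and 8.76% lower of all genes, with Flna at 1.10 ± 0.15, Capg at 1.12 ± 0.18, the cofilin phosphatase Ssh1 at 0.96 ± 0.12, Actn1 at -2.91 ± 0.49 and Evl at -1.01 ± 0.17. Of the 19 genes of the Arp2/3 list, edgeR called 0 in WT and 1, Wasf2 (0.58 ± 0.17), in KO, and a difference between the genotypes was not called. Wasf2 was called in WT as well without KO stage III replicates 1 and 3 (0.49, edgeR adjusted p = 0.00884), and the paired WT fit called 8 of the 19 higher and 2 lower. The paired WT fit called 52 of 120 higher and 22 lower from II to IV, where 46.5% of all tested genes were called. The edgeR fit without KO stage III replicates 1 and 3 called 26 of 128 higher and 12 lower for WT and 21 and 15 for KO, where 19.3% and 18% of all genes were called. The median change of the 122 genes was 0.12 in WT and 0.15 in KO, beside -0.02 and 0.03 over all tested genes.

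Of the 122 genes of the lists, 3 (Inf2, Flna and Zyx) were called from II to III in WT, where 2.97% of all tested genes were. From III to IV 2 were called, 1 of them lower (Actn1 at -2.39 ± 0.52), where 3.17% of all tested genes were. The paired WT fit called 43 of 120 higher and 6 lower from II to III, and 13 higher and 19 lower from III to IV, where 19.4% and 24.3% of all tested genes were called. For the difference of the genotype effect between stages, edgeR called 0 of the 122 in each of the 3 comparisons. Of all tested genes, 0.0494%, 0.212% and 0.0283% were called for III against II, IV against II and IV against III. For IV against II, Ssh1 (0.77 ± 0.12) and Lsp1 (-0.65 ± 0.12) passed in the fit without KO stage III replicates 1 and 3. More of all genes passed in that fit as well, as given in the closing section.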

How the data were processed

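Spleen NK cells sorted by CD27 and CD11b were stored in Trizol and their RNA sequenced, per the labels' protocols. Each of 18 files holds, per the file headers, the count of reads per Ensembl gene made by the authors with STAR 2.0.4 and featureCounts 1.4.5 (submitters' processing notes). The sources used here do not give the genome build, read layout, strand setting or treatment of multiply mapping reads. The files also hold CPM, which the authors computed as the count over the library total (largest relative difference on recomputation 5.05e-15), and RPKM, which the authors computed as CPM per kilobase (6.64e-14). The deposited count alone entered the tests. Of 41388 gene IDs, 40254 had a symbol in the GRCm38 annotation and 40158 overlapped its positions.

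Groups came from the labels. One edgeR 4.0.16 quasi-likelihood model (R 4.3.3) with 6 group means was fitted to all 18 libraries after filterByExpr and TMM scaling, and p-values were Benjamini-Hochberg adjusted over 14156 genes, with calls at an adjusted p under 0.05 and a prior count of 0.125. Standard errors are the log2 fold change over the square root of F and are approximate. All 10 genes passed the filter on low counts. The model was tested on simulated data. Ratios within a library were tested by exact permutation (scipy 1.17.1, Python 3.11.15). Near-identical features came from BLAST+ 2.17.0 against annotated transcripts (at least 95% identity over 100 bases). No replicate pair agreed within sampling noise (chi-square per gene at least 13.3). Counts carry no molecular identifiers, so PCR copies are included.

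Alternatives were DESeq2 1.42.0, limma 3.58.1 voom with quality weights, other scalings, no filter, a replicate block, only the groups compared, and libraries left out. Replicate numbers paired the WT stages: deviations of same-numbered WT libraries correlated at 0.286 to 0.485 (II and III), 0.131 to 0.254 (II and IV) and 0.205 to 0.448 (III and IV). A fit of the 9 WT libraries with the number as a block (the paired WT fit) is therefore given beside the WT results. It was added after the data were seen, as were the fits of the lists without libraries that stood apart. Same-numbered libraries also deviated together in KO stages II and III (0.154 to 0.313) and in KO stage II and WT stage IV (0.134 to 0.292). Differently numbered libraries could correlate too, at 0.186 for WT stage II replicate 2 and WT stage III replicate 3. Over all pairs the median was 0.122 for the same number and -0.047 for different numbers. The 10 genes and all lists were chosen with earlier results of these data known. Of each list, at most the 2 highest and 2 lowest called genes per comparison are named, and for Gsn and Actb the 5 most correlated genes.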

Additional observations from a re-analysis of the deposited data

How the results depend on the processing

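Of 3100 alternative values for single genes, 2931 kept direction and side of the threshold, 84 lost the call, 83 gained it and 2 reversed: Actb in stage III, at -0.22 without KO stage III replicates 1 and 3 and -0.23 without all 4 libraries that stood apart. The cause of each change below was not tested. Counts are given as genes of the 10, then all genes. The starting counts of all genes were 207 (KO against WT in II), 1119 (III), 72 (IV), 772 (averaged), 420 (WT II to III), 449 (WT III to IV), 2135 (WT II to IV), 2106 (KO II to IV) and 7, 30 and 4 (interactions III against II, IV against II, IV against III).

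KO against WT in stage II gave 0 of the 10 with library totals. All genes were 623 with no filter, 367 with DESeq2, 1061 with voom, 345 with only the groups compared, 463 without both KO stage III libraries that stood apart and 663 without all 4. In stage III, library totals gave 2 and 519, only the groups compared 0 and 10, omission of both libraries 1 and 162, and of all 4 1 and 263, while all genes were 1941 with no filter, 2271 with DESeq2, 730 with voom and 1770 with the replicate block. In stage IV, no filter gave 1 and 323, DESeq2 1 and 154, voom 1 and 358, omission of both libraries 1 and 168, and of all 4 120 genes. The average gave 2 and 1353 with no filter, 2 and 1316 with DESeq2, and 3 and 1553 with voom; it uses all 6 groups, so it has no fit of only the groups compared.

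WT II to III gave 734 genes with no filter, 684 with DESeq2, 1830 with voom, 1014 with only the groups compared, 909 without both libraries, 870 without all 4, and 5 and 2533 in the paired WT fit. WT III to IV gave 1 with no filter, 1 and 752 with DESeq2, 3 and 2526 with voom, 2 and 1459 with only the groups compared, 2 and 1022 without both, 2 and 1266 without all 4, and 4 and 3179 paired. WT II to IV gave 5 and 5155 with voom, 5 and 3663 with only the groups compared, 5 and 3596 without both, 5 and 3647 without all 4, and 7 and 6075 paired. KO II to IV gave 6 and 4191 with voom, 5 with only the groups compared, 6 and 3355 without both and 6 and 3461 without all 4. With library totals, genes higher and lower were 84 and 281 in WT II to III (140 and 280 with TMM) and 502 and 1570 in WT II to IV (745 and 1390).

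For the interactions, III against II gave 290 genes with no filter, 115 with DESeq2, 39 with voom and 2 with only the groups compared. IV against II gave 1671 with no filter, 134 with DESeq2, 274 with voom, 46 with the replicate block, 113 with only the groups compared, 123 without both and 165 without all 4. IV against III gave 1 with library totals, 1 and 331 with no filter, 54 with DESeq2, 7 with voom and 0 with only the groups compared.

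Leaving out each library in turn gave 0 to 1 of the 10 and 105 to 325 genes in II, 1 to 7 and 144 to 4993 in III, 0 to 1 and 30 to 110 in IV, and 1 to 6 and 486 to 3196 averaged. The ranges were 1 to 3 and 204 to 629 for WT II to III, 0 to 1 and 235 to 699 for WT III to IV, 3 to 4 and 1289 to 2619 for WT II to IV, and 3 to 4 and 1429 to 2540 for KO II to IV. For the interactions they were 0 to 6 and 2 to 2443, 0 to 0 and 2 to 66, and 0 to 5 and 0 to 2440. The upper ends in stage III, in the average and in the interactions that involve stage III came without KO stage III replicate 2.

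The replicate block over all 6 groups called 1, 5, 0, 1, 3, 0, 3, 3, 0, 0 and 0 of the 10 genes in the same order of comparisons, adding Pfn1 in stage III (0.63). Between KO and WT of one stage, same-numbered libraries did not deviate together (correlations of -0.0994 to 0.122, -0.00573 to 0.0506 and -0.0364 to 0.167). The stage III differences in the log2 ratios without KO stage III replicates 1 and 3 were 0.11 for Actb to Actg1 (1.59 with them) and -0.033 for Tmsb4x to Tmsb10 (-0.12), and in the summed share of counts -0.441 percentage points (2.97). Depth limits Gsn and Actg1, with as few as 58 and 113 counts in a library.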
